A study of Mus musculus with 12 samples.

Results

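The 53 genes described here code for the proteins that license, start and carry out DNA replication, among them the origin recognition complex, the MCM2-7 helicase, the replicative polymerases, the sliding clamp and its loader, and factors that travel with the fork. They were chosen by gene symbol from the pathway and not by a cut-off on a measured value, although earlier results of these data were known. They make up 53 of the 24421 genes in the count tables. In G1 the origin recognition complex, Cdc6 and Cdt1 load MCM2-7 rings onto DNA, which licenses each origin for the coming S phase. Kinases, Cdc45 and the GINS complex then turn the loaded rings into active helicases, and the polymerases, clamp, flap nuclease and ligase copy both strands behind them. Many of these genes are transcribed in late G1 and S phase under E2F control and are low in resting B cells, and MYC, which binds DNA as a dimer with MAX, is a known driver of B cell growth and division.

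The study measured RNA by sequencing in B220+ cells, a B lineage gate, from spleens of mice aged 4 to 5 weeks. It combined the EuMyc transgene, in which an immunoglobulin heavy chain enhancer drives Myc in the B lineage, with a conditional knockout of Max, and describes the transgenic cells as premalignant. The 4 genotype groups were EuMyc Max KO (transgene present, Max deleted), EuMyc (transgene present, Max WT), Max KO (no transgene, Max deleted) and WT (no transgene, Max WT). Each group held 3 libraries, and each library came from 1 mouse. The sources used here do not give the strain background or the Cre line that deletes Max, so the cells in which deletion took place cannot be stated. Xist, an RNA of female cells, had the lowest log2 fold change of all tested genes in EuMyc against WT (-10.09). It had the highest in EuMyc Max KO against EuMyc (10.36) and in the interaction of transgene and Max loss (9.91). The sex of the mice is not given here, so sex and genotype cannot be told apart in these comparisons. The part of sex in the levels below was not tested.

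Depth was 14973332 to 21671601 reads in genes per library. The transcript of the targeted gene stayed present in the knockout groups. Max was at 108, 104 and 102 CPM in EuMyc Max KO, 126, 127 and 130.0 CPM in EuMyc, 102, 102 and 99.8 CPM in Max KO, and 139, 110.3 and 108 CPM in WT (CPM, the reads of a gene scaled to a common library size by edgeR's trimmed mean of M values). These counts cover the whole gene and do not show how much of it was deleted. Myc averaged 522 ± 39.5 CPM in EuMyc Max KO, 1010.4 ± 37.1 CPM in EuMyc, 126 ± 8.37 CPM in Max KO and 106 ± 9.37 CPM in WT (SD, n = 3 each). Summed markers of the B lineage ran from 16160 to 19354 CPM in EuMyc Max KO, 6836 to 8530 CPM in EuMyc, 21556 to 21868 CPM in Max KO and 21830 to 24295 CPM in WT, with all 10 genes detected.

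All 53 genes rose in EuMyc against WT, where 36.7% of all tested genes rose and 34.9% fell, and all 53 fell in EuMyc Max KO against EuMyc, where 36.1% of all tested genes fell and 37.6% rose. Their summed level was 3555, 3106 and 2655 CPM in the EuMyc Max KO libraries, 8911, 10288 and 9197 CPM in EuMyc, 2022, 1944 and 1999 CPM in Max KO, and 2448, 2285 and 2422 CPM in WT. The 4 groups did not overlap in this sum, and EuMyc Max KO lay closer to WT than to EuMyc. As a share of the reads in genes, the 53 took 0.316% ± 0.0424 in EuMyc Max KO, 0.887% ± 0.0605 in EuMyc, 0.206% ± 0.00300 in Max KO and 0.240% ± 0.00533 in WT (SD, n = 3 each). In bulk libraries such as these, fewer cells that express a gene and less of its RNA per cell cannot be told apart.

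Every comparison below was read from edgeR's quasi-likelihood test over all 12878 genes that passed a filter on low counts, with Benjamini-Hochberg adjustment over all of them and a call at an adjusted p under 0.05. All 53 genes passed that filter. In EuMyc Max KO against EuMyc, 53 genes were lower and 0 higher, with a median log2 fold change of -1.66 and a median over all tested genes of 0.03. No gene was higher at an unadjusted p under 0.05 either (0 of 53), and DESeq2 also called 53 lower and 0 higher. In EuMyc against WT, 53 were higher and 0 lower, with a median of 2.15 and a median over all tested genes of 0.01. The lower direction was empty at an unadjusted p under 0.05 as well (0 of 53), and DESeq2 called 53 higher and 0 lower. Of the 53, 44 rose over 2-fold in EuMyc against WT and 43 fell over 2-fold in EuMyc Max KO against EuMyc. Of all 12878 tested genes, 3982 were called and over 2-fold in either direction in EuMyc against WT. In EuMyc Max KO against EuMyc that count was 4176.

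Without the transgene, fewer of the genes fell with Max loss. In Max KO against WT, 19 genes fell and 0 rose, with a median log2 fold change of -0.38, against 7.74% of all tested genes called lower, 7.27% called higher and a median over all tested genes of -0.0032. The edgeR test placed 33 genes lower and 0 higher at an unadjusted p under 0.05, and DESeq2 called 29 lower and 0 higher. The count of 19 fell whichever library of these groups was left out. It was 10 without WT 1, WT 3 or Max KO 1, 11 without Max KO 2, and at most 16 (without Max KO 3). Calls over all tested genes fell as well. The lower calls went from 997 to 411 without WT 1, 586 without WT 3, 423 without Max KO 1 and 540 without Max KO 2. The 19 were Orc6, 3 MCM genes, 4 firing factors, Pole2, 4 clamp loader subunits, 3 fork protection genes and 3 chromatin genes. None of the 3 loading genes or the 5 genes of flap removal, ligation and single-strand binding was among them.

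With Max deleted, the transgene still went with higher levels. In EuMyc Max KO against Max KO, 41 genes rose and 0 fell, with a median of 0.79, against 10.7% of all tested genes called higher and 3.69% lower; at an unadjusted p under 0.05 the edgeR counts were 44 and 0. In EuMyc Max KO against WT, 30 rose and 1, Rfc1, fell, with a median of 0.42, against 17.0% of all tested genes called higher and 10.8% lower. These comparisons share the EuMyc Max KO libraries, so they are not independent of each other. The means stood in the order EuMyc, EuMyc Max KO, WT, Max KO for 41 of the 53 genes. In the others, 6 had Max KO above WT and 6 had EuMyc Max KO below WT.

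**Figure D1:**
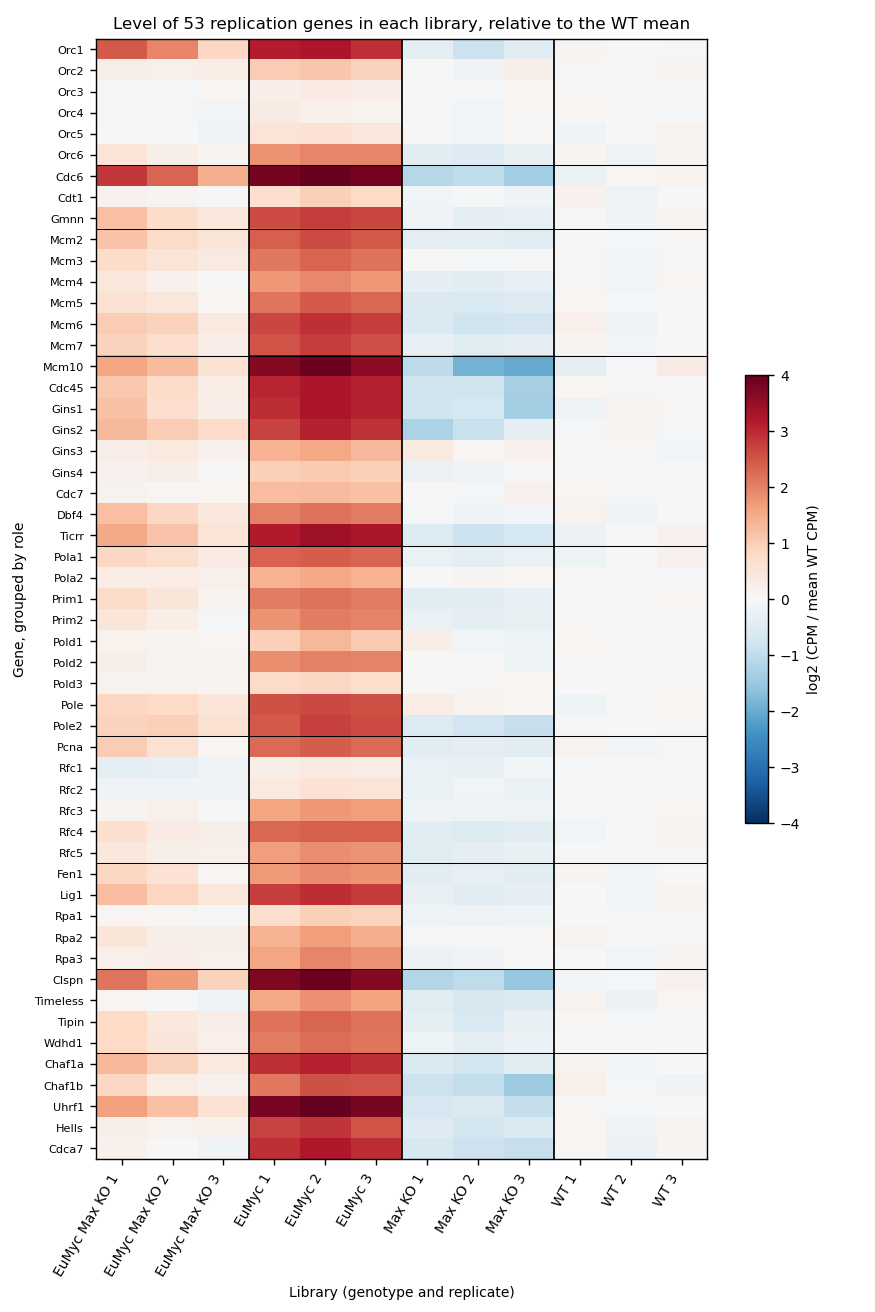
Level of each of the 53 genes (down the page, grouped by role) in each of the 12 libraries (across), as log2 of CPM over the WT mean on a colour scale, whose colours end at 4 in either direction. The 3 EuMyc columns are the highest for every role, and the 3 EuMyc Max KO columns differ among themselves, with library 1 the highest in 43 genes and library 3 the lowest in 45.

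The 3 EuMyc Max KO mice were not alike. The median log2 level of the 53 genes over their WT mean was 0.68 in EuMyc Max KO 1, 0.40 in EuMyc Max KO 2 and 0.21 in EuMyc Max KO 3. By the same measure the EuMyc libraries stood at 2.09, 2.23 and 2.12 and the Max KO libraries at -0.31, -0.39 and -0.30. Library 1 was above library 2 and library 2 above library 3 in 39 of the 53 genes (73.6%), an order that 27.8% of the 12465 tested genes with reads in every library also had. The median ratio of library 1 to library 3 was 1.36 over the 53 genes and 0.992 over those 12465.

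Markers of division and of another cell lineage moved with these libraries. The 20 mitosis markers summed to 3383, 2475 and 1114 CPM in EuMyc Max KO 1, 2 and 3, against 6588 to 7518 CPM in EuMyc, 203 to 262 CPM in Max KO and 485 to 554 CPM in WT. All 20 rose in EuMyc Max KO against WT, with a median log2 fold change of 1.89 beside 0.42 for the replication genes, and 19 fell in EuMyc Max KO against EuMyc, with -1.77 beside -1.66. The 14 erythroid markers, expected to be scarce behind a B220+ gate, summed to 7402, 5047 and 1381 CPM in EuMyc Max KO 1, 2 and 3, against 800.4 to 950.6 CPM in EuMyc, 246 to 569 CPM in Max KO and 166 to 448 CPM in WT. Of the 12 erythroid markers that passed the filter, 12 rose in EuMyc Max KO against WT and 11 in EuMyc Max KO against EuMyc, and 1 of the 14 (Hbb-bt) had 0 reads in every library. All 20 mitosis markers and all 12 tested erythroid markers had the order 1 over 2 over 3. Monocyte and macrophage markers ran from 2512 to 4198 CPM in EuMyc Max KO, 709 to 852 CPM in EuMyc, 2318 to 3309 CPM in Max KO and 1443 to 1770 CPM in WT, and pro-B and pre-B markers from 153 to 208, 1121 to 1173, 123 to 147 and 128 to 147 CPM in the same groups. Neutrophil markers summed to 254, 234 and 19.2 CPM in EuMyc Max KO 1, 2 and 3, against 9.25 to 14.6 CPM in EuMyc, 11.2 to 145 CPM in Max KO and 3.16 to 11.9 CPM in WT. T cell markers ran from 88.7 to 107 CPM in EuMyc Max KO, 11.3 to 16.1 CPM in EuMyc, 79.8 to 100.4 CPM in Max KO and 57.9 to 85.4 CPM in WT. The part of any of these cells in the levels of the replication genes was not tested.

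Each median with EuMyc Max KO was also taken with library 3 standing alone and assumed to vary like the other groups. Library 3 was the one with the fewest erythroid reads. Against EuMyc, the median log2 fold change was -1.96, where the 3 libraries together gave -1.66. Against Max KO it was 0.53, where the 3 together gave 0.79. Against WT it was 0.19, where the 3 together gave 0.42. The medians over all tested genes with library 3 alone were 0.0038 against EuMyc, -0.013 against Max KO and -0.016 against WT.

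**Figure D2:**
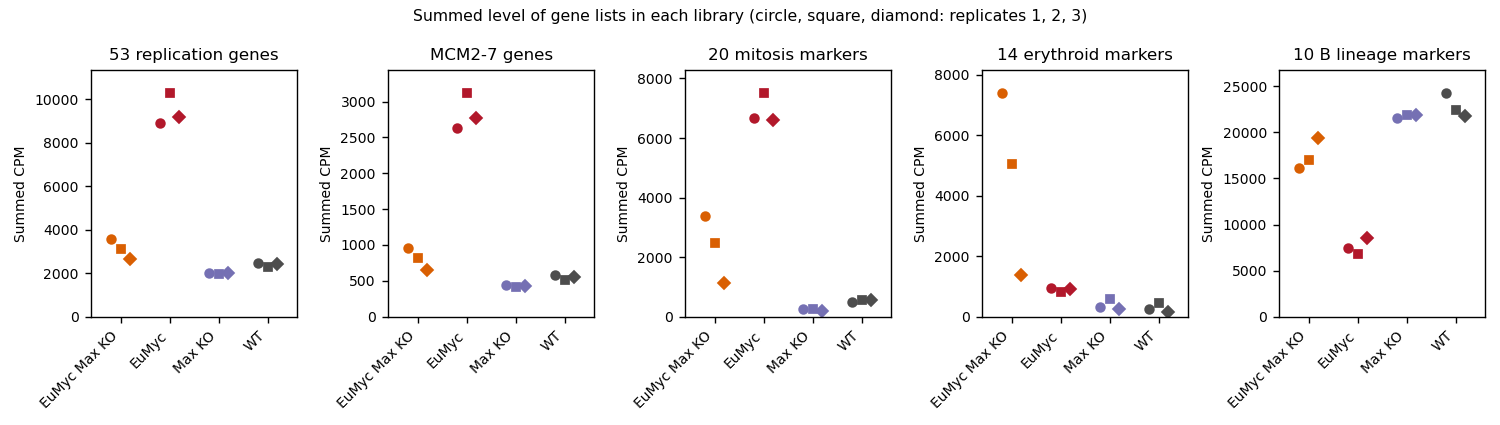
Summed CPM (vertical axis, linear, from 0) of the 53 replication genes, the MCM2-7 genes, 20 mitosis markers, 14 erythroid markers and 10 B lineage markers in each library, 1 point per mouse, with the groups across. EuMyc Max KO library 1 is the highest of its group and library 3 the lowest in the first 4 panels, and the reverse holds in the B lineage panel.

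The promoters of the genes were read to show what the members that moved most and least carry near their start. RefSeq windows on GRCm38.p6, from 250 bases before to 50 bases after the start, were found for 44 of the 53 genes. The first window listed for each gene was used, and it need not sit at the start annotated elsewhere. In GENCODE vM21 Cdc6 starts at 98907801, before its whole window. Timeless starts there at 128232065, and its window begins at 128237816. They were searched on both strands for 3 forms of the E2F consensus core, here called E2F-type motifs. The first form, TTCCCGC, stood in 45.5% of the windows of these genes and 4.66% of all windows. The second form, TTGGCGC, stood in 20.5% of them and 2.54% of all windows. The third form, TTGCCGC, stood in 4.55% of them and 1.8% of all windows. The E-box CACGTG, the site that MYC and MAX dimers prefer, was searched likewise. At least 1 E2F-type motif stood in 25 of the 44 windows (56.8%), against 8.46% of all 27025 RefSeq windows of that length. The E-box stood in 5 of the 44 (11.4%), against 7.24% of all windows. The windows of these genes were also richer in G and C, at a median of 61.8% against 52.7%. Matches overlapped each other in 2 windows, those of Mcm3 and Rfc1. Genes with and without an E2F-type match had median log2 fold changes of 2.20 and 1.96 in EuMyc against WT, and -1.63 and -1.60 in EuMyc Max KO against EuMyc. A match is a run of letters and not a measured binding site. The 4 windows below are those of Cdc6, the gene that rose most with the transgene, Mcm6, the helicase subunit that fell most in EuMyc Max KO against EuMyc, Cdca7, which fell most of all 53 there, and Orc4, which rose least; capitals mark the motif matches.
Cdc6, chr11:98907901-98908200, plus strand: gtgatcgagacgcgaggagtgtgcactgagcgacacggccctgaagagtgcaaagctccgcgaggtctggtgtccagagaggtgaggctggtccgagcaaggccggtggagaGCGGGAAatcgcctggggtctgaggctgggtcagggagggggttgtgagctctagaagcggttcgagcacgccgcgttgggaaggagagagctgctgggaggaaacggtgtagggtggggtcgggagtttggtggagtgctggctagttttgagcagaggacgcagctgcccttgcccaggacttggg
Mcm6, chr1:128359656-128359955, minus strand: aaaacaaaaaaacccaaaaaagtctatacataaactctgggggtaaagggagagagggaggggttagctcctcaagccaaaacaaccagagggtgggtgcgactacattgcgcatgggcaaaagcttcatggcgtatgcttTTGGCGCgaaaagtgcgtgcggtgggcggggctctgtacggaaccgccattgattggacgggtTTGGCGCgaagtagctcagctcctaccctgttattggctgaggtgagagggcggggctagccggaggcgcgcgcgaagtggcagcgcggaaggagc
Cdca7, chr2:72475969-72476268, plus strand: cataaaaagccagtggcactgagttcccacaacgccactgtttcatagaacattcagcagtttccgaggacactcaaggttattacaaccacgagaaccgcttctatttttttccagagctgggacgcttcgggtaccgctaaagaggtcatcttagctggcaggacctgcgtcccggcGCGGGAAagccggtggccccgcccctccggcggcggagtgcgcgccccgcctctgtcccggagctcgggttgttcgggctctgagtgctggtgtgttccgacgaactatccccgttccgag
Orc4, chr2:48950032-48950331, minus strand: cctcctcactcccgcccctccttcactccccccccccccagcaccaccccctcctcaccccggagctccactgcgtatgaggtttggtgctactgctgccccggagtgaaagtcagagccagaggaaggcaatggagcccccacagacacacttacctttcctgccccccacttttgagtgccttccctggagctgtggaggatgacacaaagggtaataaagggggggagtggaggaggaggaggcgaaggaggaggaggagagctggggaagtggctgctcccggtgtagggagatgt
The Cdc6 and Cdca7 windows each held 1 E2F-type match, both as the reverse complement of TTCCCGC. The Mcm6 window held 2 matches of TTGGCGC. The Orc4 window, the first of 3 that RefSeq lists for the gene, held 0 E2F-type matches and 0 E-boxes, as far as these letters go. These 4 windows do not stand for all. Of the genes with the next largest rises in EuMyc against WT, Uhrf1 held 1 E2F-type match and Clspn and Mcm10 held 0. Of those with the next smallest rises, Orc3 held 1 and Rfc1 held 2.

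The origin recognition complex, the platform of 6 subunits that marks origins, split into moving and nearly steady subunits. All 6 genes fell in EuMyc Max KO against EuMyc, with a median log2 fold change of -0.67, the smallest of the 9 roles. Orc6, which helps the complex recruit the helicase, was at 25.8, 20.7 and 18.98 CPM in EuMyc Max KO, 61.5, 68.5 and 68.5 CPM in EuMyc, 12.8, 12.2 and 14.3 CPM in Max KO, and 18.7, 15.1 and 18.8 CPM in WT. None of the 4 groups overlapped another, although EuMyc Max KO 3 came close to the highest WT library. Orc6 fell by 1.60 on the log2 scale (SE 0.1197, adjusted p = 8.46e-08) in EuMyc Max KO against EuMyc by edgeR, and fell by 0.42 on the log2 scale (SE 0.125, adjusted p = 0.0419) in Max KO against WT. Orc3, a core subunit, was at 80.8, 83.8 and 91.2 CPM in EuMyc Max KO, 102, 107 and 104 CPM in EuMyc, 85.8, 80.9 and 89.8 CPM in Max KO, and 84.4, 87.9 and 85.5 CPM in WT. The EuMyc libraries were the highest, and the other 3 groups overlapped. The difference was small but passed edgeR's test, a log2 fold change of -0.29 (SE 0.0592, adjusted p = 0.000615) in EuMyc Max KO against EuMyc and a log2 fold change of 0.28 (SE 0.0593, adjusted p = 0.000853) in EuMyc against WT.

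Orc4, another core subunit, had the smallest rise with the transgene. Orc4 was at 43.7, 44.3 and 42.4 CPM in EuMyc Max KO, 57.5, 53.2 and 50.3 CPM in EuMyc, 43.1, 42.2 and 46.97 CPM in Max KO, and 48.1, 45.8 and 43.7 CPM in WT. The EuMyc libraries were the highest and the other 3 groups overlapped. The edgeR result was a log2 fold change of 0.23 (SE 0.0712, adjusted p = 0.0118) in EuMyc against WT, and this call was lost without WT 3 (adjusted p = 0.0546) or without EuMyc 1 (adjusted p = 0.0577). Orc1, the subunit whose level follows the cell cycle, was picked after its values were seen. It had the largest rise of the complex in EuMyc against WT, a log2 fold change of 3.10. In EuMyc Max KO against EuMyc the largest fall of the complex was that of Orc6, at -1.60. Orc1 was at 15.7, 11.3 and 5.15 CPM in EuMyc Max KO, 25.6, 27.4 and 21.7 CPM in EuMyc, 2.202, 1.598 and 2.17 CPM in Max KO, and 3.09, 2.84 and 2.74 CPM in WT. Its level in EuMyc Max KO 1 was 3.05 times that in EuMyc Max KO 3, the widest ratio among the 53 genes. It was also the most thinly counted, with 25 reads in its lowest library. Per kilobase of exon, the mean level of Orc1 was 3.08 CPM in EuMyc Max KO, 7.16 in EuMyc, 0.572 in Max KO and 0.831 in WT, while that of Orc2, a core subunit, was 15.6, 26.5, 13.5 and 13.2 in the same groups. Orc1 RNA was thus below Orc2 RNA per kilobase in every group.

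Helicase loading has 2 factors, Cdc6 and Cdt1, and an inhibitor, geminin (Gmnn), which binds Cdt1 after origins have fired. Cdc6 was at 45.6, 32.1 and 17.6 CPM in EuMyc Max KO, 90.6, 109.6 and 91.2 CPM in EuMyc, 2.88, 3.196 and 2.46 CPM in Max KO, and 5.33, 6.76 and 7.09 CPM in WT. Each group kept to its own range, and the EuMyc Max KO libraries lay between EuMyc and WT. Cdc6 rose by 3.92 on the log2 scale (SE 0.309, adjusted p = 9.98e-07) in EuMyc against WT by edgeR, the largest rise of the 53 genes, and fell by 1.61 on the log2 scale (SE 0.2700, adjusted p = 0.000322) in EuMyc Max KO against EuMyc. In Max KO against WT it had a log2 fold change of -1.17 (SE 0.357, adjusted p = 0.0539), which missed edgeR's threshold, with all 3 Max KO libraries below all 3 WT libraries. EuMyc Max KO 1 held 2.59 times the Cdc6 of EuMyc Max KO 3.

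Cdt1 moved much less than Cdc6. Cdt1 was at 63.9, 61.1 and 55.2 CPM in EuMyc Max KO, 89.7, 108 and 97.9 CPM in EuMyc, 51.7, 52.9 and 49.4 CPM in Max KO, and 63.8, 48.4 and 56.5 CPM in WT. EuMyc stood above the other groups, and WT overlapped both EuMyc Max KO and Max KO. It fell by 0.72 on the log2 scale (SE 0.0991, adjusted p = 2.47e-05) in EuMyc Max KO against EuMyc by edgeR. Gmnn was at 32.4, 23.6 and 18.9 CPM in EuMyc Max KO, 84.9, 96.05 and 88.97 CPM in EuMyc, 12.7, 10.99 and 11.3 CPM in Max KO, and 14.6, 12.3 and 15.2 CPM in WT. EuMyc was the highest and EuMyc Max KO the next, above Max KO and WT in all 3 libraries. Gmnn fell by 1.85 on the log2 scale (SE 0.158, adjusted p = 4.72e-07) in EuMyc Max KO against EuMyc by edgeR, so the inhibitor had a larger log2 difference than its target Cdt1, although the 2 differences were not tested against each other.

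**Figure D3:**
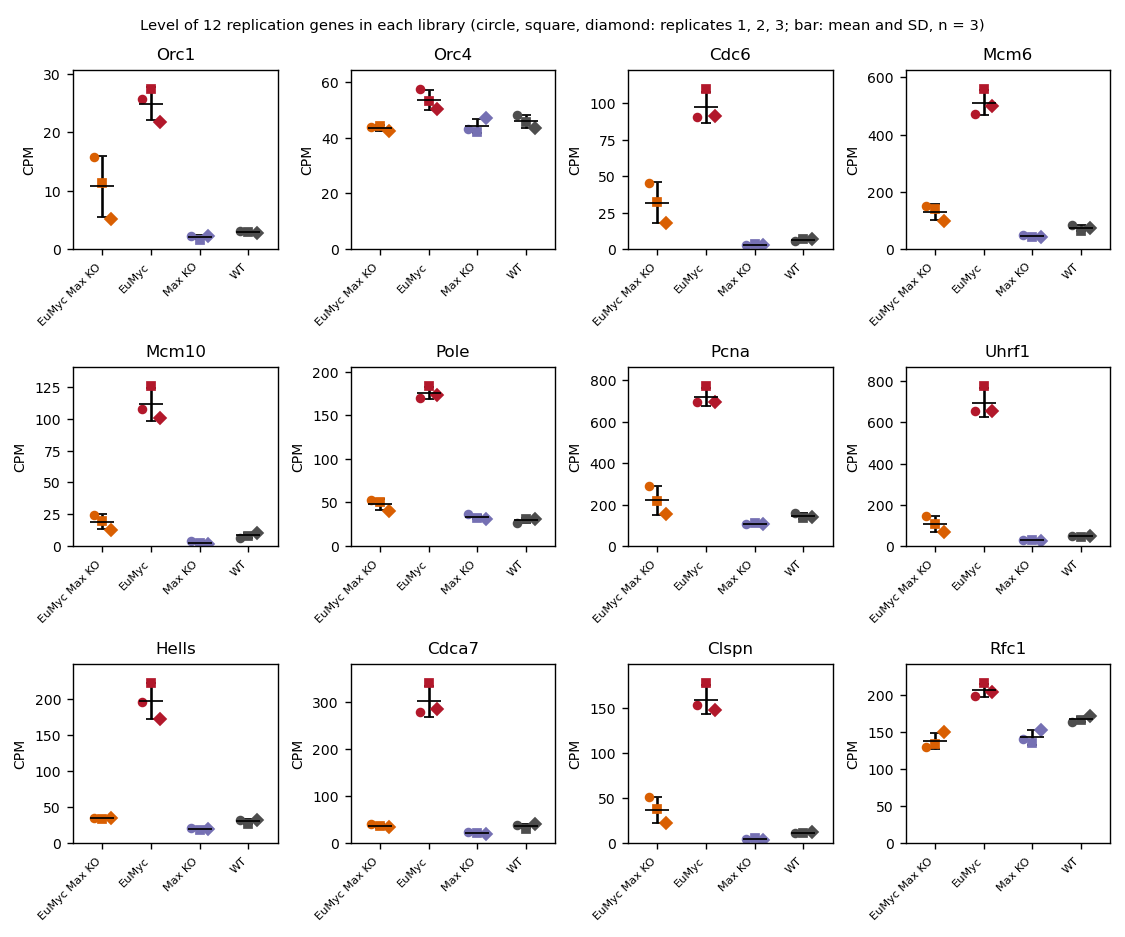
CPM (vertical axes, linear, from 0) of 12 replication genes in each library, 1 point per mouse, with bars for the group mean and SD; groups run across. The EuMyc points are the highest in every panel, while the distance between EuMyc Max KO and WT runs from clear (Cdc6) to nearly none (Cdca7) or below WT (Rfc1).

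The 6 subunits of the MCM2-7 helicase moved the same way. All 6 genes rose in EuMyc against WT (median log2 fold change 2.39) and all 6 fell in EuMyc Max KO against EuMyc (-1.78), with single genes between -1.58 and -1.98. Their summed level was 955, 820.2 and 657 CPM in EuMyc Max KO, 2628, 3123 and 2778 CPM in EuMyc, 435, 407 and 422 CPM in Max KO, and 581, 510.3 and 559.7 CPM in WT. No overlap was seen between the 4 groups, and in EuMyc Max KO library 1 was the highest and library 3 the lowest for all 6 genes. Mcm6 was at 149.6, 141 and 97.5 CPM in EuMyc Max KO, 473, 559 and 500.5 CPM in EuMyc, 49.2, 42.4 and 43.4 CPM in Max KO, and 84.6, 63.7 and 74.04 CPM in WT. EuMyc was far above the others, EuMyc Max KO was above WT, and Max KO was below WT, without overlap. Mcm6 fell by 1.98 on the log2 scale (SE 0.155, adjusted p = 5.12e-07) in EuMyc Max KO against EuMyc by edgeR, and fell by 0.72 on the log2 scale (SE 0.157, adjusted p = 0.0138) in Max KO against WT.

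Mcm4 was at 129, 108 and 95.9 CPM in EuMyc Max KO, 316, 364 and 318 CPM in EuMyc, 73.3, 69.5 and 75.7 CPM in Max KO, and 98.2, 88.5 and 99.8 CPM in WT. EuMyc was the highest group and Max KO the lowest, and EuMyc Max KO 3 lay within the WT range. Mcm4 fell by 1.58 on the log2 scale (SE 0.0984, adjusted p = 1.84e-08) in EuMyc Max KO against EuMyc by edgeR. In Max KO against WT, Mcm4, Mcm5 and Mcm6 fell, while Mcm2, Mcm7 and Mcm3 were not called, with log2 fold changes of -0.41, -0.40 and -0.03. Below, a single value in parentheses after a gene is its log2 fold change. In EuMyc Max KO against WT, 5 of the 6 rose, and Mcm4 (0.22) was not called. Per kilobase of exon the subunit RNAs were unequal, and Mcm2 was the lowest in every group. The highest stood over the lowest by a ratio of 2.26 in EuMyc Max KO (Mcm3), 2.37 in EuMyc (Mcm5), 3.61 in Max KO (Mcm3) and 2.78 in WT (Mcm3). Exons of Mcm7 overlap those of Cops6 and Ap4m1 on the other strand, and the sources used here do not state whether counting used strand.

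Helicase activation and origin firing gave some of the largest differences. All 9 genes rose in EuMyc against WT (median log2 fold change 2.90) and fell in EuMyc Max KO against EuMyc (-1.86). Mcm10, a firing factor that binds the activated helicase, was at 24.8, 19.95 and 12.8 CPM in EuMyc Max KO, 108, 126 and 101 CPM in EuMyc, 4.07, 2.24 and 2.06 CPM in Max KO, and 6.53, 8.18 and 10.4 CPM in WT. The ranges of the 4 groups were separate, and the Max KO libraries were the lowest. Mcm10 fell by 2.54 on the log2 scale (SE 0.264, adjusted p = 8.37e-06) in EuMyc Max KO against EuMyc by edgeR, and fell by 1.58 on the log2 scale (SE 0.328, adjusted p = 0.0123) in Max KO against WT, the largest fall of the 53 genes there. Cdc45, the helicase cofactor (-0.95), and the GINS subunits Gins1 (-0.93) and Gins2 (-0.79) also fell there, by the log2 fold changes given.

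The GINS complex was uneven. Gins3 was at 14.8, 16.4 and 13.98 CPM in EuMyc Max KO, 32.4, 35.9 and 30.5 CPM in EuMyc, 15.9, 13.1 and 13.9 CPM in Max KO, and 12.7, 12.8 and 11.6 CPM in WT. EuMyc stood above the rest, EuMyc Max KO and Max KO overlapped, and all Max KO libraries lay above all WT libraries. In Max KO against WT the edgeR result was a log2 fold change of 0.21 (SE 0.108, adjusted p = 0.216), the most positive of the 53 and not called. Gins4 was at 31.2, 32.6 and 28.7 CPM in EuMyc Max KO, 54.1, 57.03 and 53.9 CPM in EuMyc, 23.8, 24.8 and 26.8 CPM in Max KO, and 28.1, 26.7 and 28.8 CPM in WT. EuMyc was the highest, and WT overlapped EuMyc Max KO and Max KO. Gins4 fell by 0.83 on the log2 scale (SE 0.0729, adjusted p = 3.56e-07) in EuMyc Max KO against EuMyc by edgeR. Of the kinase that triggers firing, the catalytic subunit Cdc7 had log2 fold changes of 1.22 in EuMyc against WT and -1.14 in EuMyc Max KO against EuMyc, and its activating subunit Dbf4 had 2.08 and -1.23, all called. In EuMyc Max KO against WT, Dbf4 rose (0.85) and Cdc7 was not called (0.08). Ticrr, which carries Cdc45 to the helicase with its partners, had log2 fold changes of 3.28 in EuMyc against WT and -2.16 in EuMyc Max KO against EuMyc, both called.

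The polymerases and primase moved the same way. All 9 rose in EuMyc against WT (median 1.96) and fell in EuMyc Max KO against EuMyc (-1.69), and 1 of 9, Pole2, fell in Max KO against WT. Pole, the catalytic subunit of the leading strand polymerase epsilon, was at 52.4, 50.6 and 40.8 CPM in EuMyc Max KO, 170.2, 183 and 173 CPM in EuMyc, 36.5, 32.5 and 31.2 CPM in Max KO, and 26.3, 30.6 and 31.3 CPM in WT. The highest group was EuMyc, EuMyc Max KO lay above the rest, and Max KO overlapped WT. Pole fell by 1.87 on the log2 scale (SE 0.0996, adjusted p = 4.82e-09) in EuMyc Max KO against EuMyc by edgeR and had a log2 fold change of 0.18 (SE 0.101, adjusted p = 0.243) in Max KO against WT, not called. Its partner subunit Pole2 had log2 fold changes of -1.76 and -0.73 in these comparisons, both called.

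Pold3, an accessory subunit of the lagging strand polymerase delta, was at 69.6, 69.1 and 67.9 CPM in EuMyc Max KO, 106, 112 and 102 CPM in EuMyc, 63.7, 65.5 and 66.6 CPM in Max KO, and 62.2, 64.4 and 61.7 CPM in WT. EuMyc stood above the rest, EuMyc Max KO came next, and Max KO overlapped WT. Pold3 fell by 0.63 on the log2 scale (SE 0.0521, adjusted p = 1.99e-07) in EuMyc Max KO against EuMyc by edgeR. Within the same enzyme, the log2 fold change there was -1.80 for Pold2 and -1.02 for the catalytic Pold1, both called. Pola2, the regulatory subunit of the polymerase alpha and primase complex that lays primers, was at 60.5, 59.5 and 56.5 CPM in EuMyc Max KO, 127, 139 and 129 CPM in EuMyc, 49.7, 53.3 and 51.3 CPM in Max KO, and 49.8, 49.6 and 47.3 CPM in WT. EuMyc Max KO lay above Max KO and WT in all libraries, and Max KO overlapped WT. In Max KO against WT Pola2 had a log2 fold change of 0.07 (SE 0.0591, adjusted p = 0.439) by edgeR, not called. Pola1, Prim1 and Prim2, its partners, had log2 fold changes of 2.36, 2.1 and 1.94 in EuMyc against WT, all called, against 1.43 for Pola2.

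The sliding clamp and its loader split as the origin complex did. Pcna, the clamp that tethers polymerases to DNA, had the highest mean level per kilobase of exon of the 53 genes in EuMyc (300.1 CPM) and was picked after its values were seen. Pcna was at 291, 219 and 153 CPM in EuMyc Max KO, 695, 770.3 and 695 CPM in EuMyc, 105, 109.7 and 105 CPM in Max KO, and 159, 135 and 141 CPM in WT. The EuMyc libraries were far above the others, and EuMyc Max KO 3 lay within the WT range. Pcna fell by 1.70 on the log2 scale (SE 0.1805, adjusted p = 7.71e-06) in EuMyc Max KO against EuMyc by edgeR. Rfc4, a small subunit of the loader, was at 23.7, 18.5 and 17.4 CPM in EuMyc Max KO, 72.96, 77.3 and 77.5 CPM in EuMyc, 11.1, 10.1 and 10.9 CPM in Max KO, and 13.8, 14.7 and 15.8 CPM in WT. The 4 groups did not overlap, and Max KO was the lowest. Rfc4 fell by 1.94 on the log2 scale (SE 0.106, adjusted p = 5.77e-09) in EuMyc Max KO against EuMyc by edgeR.

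Rfc1, the large subunit of the loader, was the 1 gene called lower in EuMyc Max KO than in WT. Rfc1 was at 130.4, 133 and 150.3 CPM in EuMyc Max KO, 199, 216 and 204 CPM in EuMyc, 139.9, 135 and 153 CPM in Max KO, and 164, 167 and 171 CPM in WT. EuMyc was the highest, WT the next, and EuMyc Max KO overlapped Max KO, both below WT. Rfc1 fell by 0.28 on the log2 scale (SE 0.0663, adjusted p = 0.00895) in EuMyc Max KO against WT by edgeR, and with EuMyc Max KO 3 alone this call was lost (log2 fold change -0.17, adjusted p = 0.268). It fell by 0.23 on the log2 scale (SE 0.0663, adjusted p = 0.0378) in Max KO against WT and rose by 0.30 on the log2 scale (SE 0.06604, adjusted p = 0.00109) in EuMyc against WT. Of the small loader subunits, Rfc2 (-0.21), Rfc4 (-0.47) and Rfc5 (-0.38) were called lower in Max KO than in WT, and Rfc3 (-0.20) was not called.

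**Figure D4:**
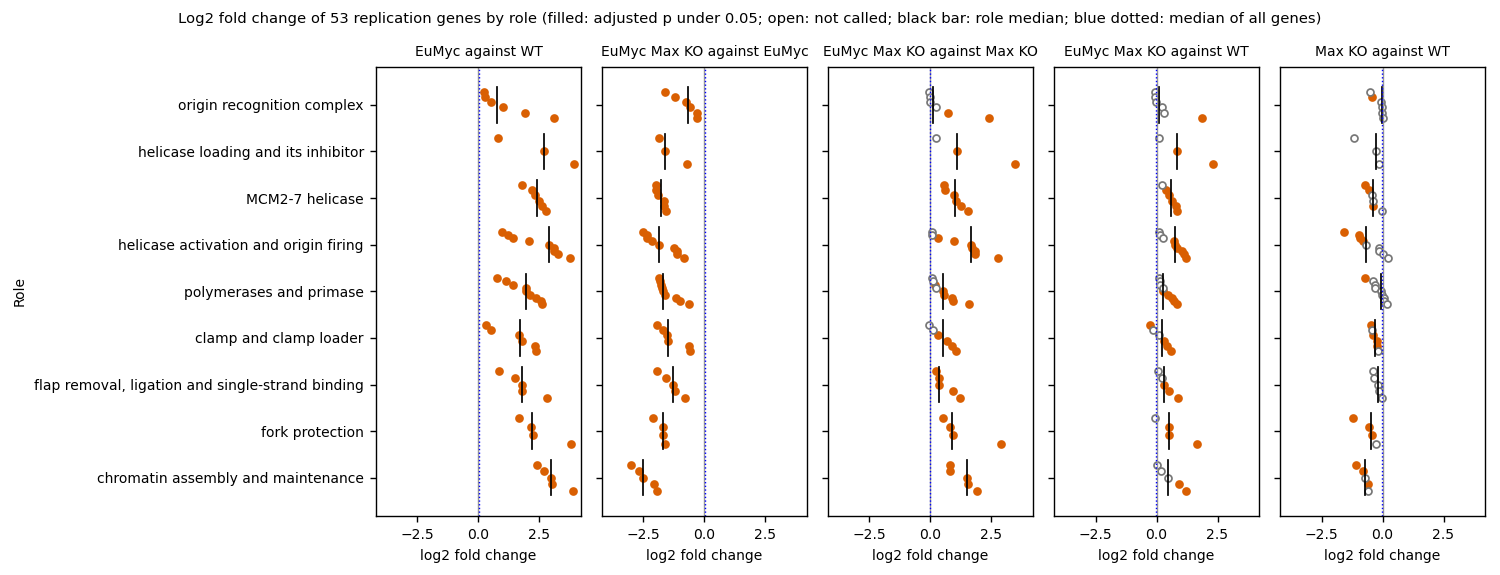
Log2 fold change (horizontal axes) of each of the 53 genes, 1 point each in rows by role, in 5 comparisons by edgeR; filled points have an adjusted p under 0.05, black bars are role medians and the dotted line is the median of all tested genes. Every point of EuMyc against WT is above 0 and every point of EuMyc Max KO against EuMyc is below 0, and the origin recognition complex has the smallest median in both.

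Flap removal, ligation and single-strand binding have 5 genes here, and all 5 fell in EuMyc Max KO against EuMyc (median -1.27). Lig1, the ligase that joins Okazaki fragments, was at 104, 80.1 and 58.8 CPM in EuMyc Max KO, 298, 340.0 and 305 CPM in EuMyc, 36.2, 33.3 and 34.1 CPM in Max KO, and 44.3, 40.8 and 47.8 CPM in WT. None of the 4 groups overlapped another. Lig1 fell by 1.96 on the log2 scale (SE 0.161, adjusted p = 9.15e-07) in EuMyc Max KO against EuMyc by edgeR. Rpa1, the large subunit of the complex that coats single-stranded DNA, was at 181, 178 and 173 CPM in EuMyc Max KO, 281, 337 and 316 CPM in EuMyc, 152, 151 and 152 CPM in Max KO, and 173, 168 and 176 CPM in WT. The highest group was EuMyc, and EuMyc Max KO overlapped WT. Rpa1 fell by 0.81 on the log2 scale (SE 0.0617, adjusted p = 9.79e-08) in EuMyc Max KO against EuMyc by edgeR. Fen1, the flap nuclease, had a log2 fold change of -1.27 there and rose in EuMyc Max KO against WT (0.53), and so did Lig1 (0.87) and Rpa2 (0.32), while Rpa1 (0.04) and Rpa3 (0.23) were not called there.

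Of the fork protection genes, Clspn moved most. Clspn codes for claspin, the adaptor that lets the ATR kinase activate Chk1 at stalled forks, and was at 50.8, 37.9 and 21.99 CPM in EuMyc Max KO, 153, 177 and 148 CPM in EuMyc, 5.195, 5.75 and 4.06 CPM in Max KO, and 10.8, 11.03 and 12.99 CPM in WT. Each group kept to its own range, and EuMyc Max KO 1 held 2.31 times the Clspn of EuMyc Max KO 3. Clspn fell by 2.11 on the log2 scale (SE 0.247, adjusted p = 2.29e-05) in EuMyc Max KO against EuMyc by edgeR and rose by 3.78 on the log2 scale (SE 0.271, adjusted p = 4.78e-07) in EuMyc against WT. In Max KO against WT it fell by 1.21 on the log2 scale (SE 0.293, adjusted p = 0.0232), but without any 1 of the 6 libraries of that comparison the adjusted p was 0.0512 to 0.0710. Wdhd1, which links the helicase to polymerase alpha, was at 61.5, 49.8 and 40.97 CPM in EuMyc Max KO, 151, 167 and 155 CPM in EuMyc, 31.00, 27.1 and 29.8 CPM in Max KO, and 35.4, 35.2 and 35.7 CPM in WT. No overlap was seen between the 4 groups, with EuMyc the highest and Max KO the lowest. Wdhd1 fell by 1.63 on the log2 scale (SE 0.114, adjusted p = 5.18e-08) in EuMyc Max KO against EuMyc by edgeR. Timeless and Tipin, partners that travel with the fork, had log2 fold changes of -1.72 and -1.72 there, both called. Tipin rose (0.51) in EuMyc Max KO against WT, and Timeless was not called (-0.05).

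Chromatin assembly and maintenance had the largest median differences of the 9 roles, -2.51 in EuMyc Max KO against EuMyc and 2.99 in EuMyc against WT. Cdca7, which works with the remodeler Hells in keeping DNA methylation, was at 41.6, 36.7 and 33.5 CPM in EuMyc Max KO, 279, 340.1 and 285 CPM in EuMyc, 23.5, 20.9 and 19.4 CPM in Max KO, and 39.1, 31.3 and 40.1 CPM in WT. EuMyc lay far above the rest, EuMyc Max KO overlapped WT, and Max KO was the lowest. Cdca7 fell by 3.02 on the log2 scale (SE 0.121, adjusted p = 1.12e-09) in EuMyc Max KO against EuMyc by edgeR, the largest fall of the 53 genes, and had a log2 fold change of 0.02 (SE 0.118, adjusted p = 0.936) in EuMyc Max KO against WT, not called. Hells, picked after its values were seen, was at 35.3, 33.8 and 34.7 CPM in EuMyc Max KO, 197, 222 and 173 CPM in EuMyc, 21.3, 18.2 and 20.3 CPM in Max KO, and 31.9, 26.2 and 32.8 CPM in WT. The ranges of the 4 groups were separate, but EuMyc Max KO and WT lay close together. Hells had a log2 fold change of -2.51 (SE 0.105, adjusted p = 8.50e-10) in EuMyc Max KO against EuMyc, called by edgeR, and of 0.19 in EuMyc Max KO against WT, not called.

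Uhrf1, which reads hemimethylated DNA behind the fork and brings in the maintenance methyltransferase, was at 147, 107 and 70.5 CPM in EuMyc Max KO, 656, 776 and 654 CPM in EuMyc, 29.8, 31.7 and 24.1 CPM in Max KO, and 48.6, 45.2 and 47.3 CPM in WT. The 4 groups did not overlap, with EuMyc the highest and Max KO the lowest. Uhrf1 rose by 3.89 on the log2 scale (SE 0.241, adjusted p = 1.74e-07) in EuMyc against WT by edgeR and rose by 1.20 on the log2 scale (SE 0.223, adjusted p = 0.004001) in EuMyc Max KO against WT. EuMyc Max KO 1 held 2.09 times the Uhrf1 of EuMyc Max KO 3, against 1.02 times for Hells. Chaf1b, a subunit of the histone chaperone CAF-1, was at 16.6, 11.5 and 10.6 CPM in EuMyc Max KO, 40.3, 54.2 and 52.4 CPM in EuMyc, 5.08, 4.67 and 3.49 CPM in Max KO, and 10.7, 8.75 and 8.34 CPM in WT. EuMyc stood above the rest, Max KO was the lowest, and EuMyc Max KO overlapped WT through library 3. Chaf1b fell by 1.93 on the log2 scale (SE 0.186, adjusted p = 1.09e-06) in EuMyc Max KO against EuMyc by edgeR, and fell by 1.07 on the log2 scale (SE 0.207, adjusted p = 0.00612) in Max KO against WT. Its partner Chaf1a had log2 fold changes of -2.06, called, and -0.58, not called, in these comparisons.

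The effect of Max loss was then set against itself with and without the transgene, as the interaction in the edgeR model, that is EuMyc Max KO minus EuMyc, less Max KO minus WT. It was negative and called for 48 genes and positive for 0, against 27.9% of all tested genes called negative and 27.8% positive, with a median of -1.22 log2 units. At an unadjusted p under 0.05 it was negative for 51 and positive for 0, and DESeq2 gave 50 and 0. The interaction was a log2 value of -2.23 (SE 0.168, adjusted p = 6.63e-07) for Cdca7, a log2 value of -2.06 (SE 0.141, adjusted p = 2.49e-07) for Pole and a log2 value of -1.96 (SE 0.316, adjusted p = 0.000466) for Uhrf1, the most negative of the 53. It was nearest to 0 for Orc4, at a log2 value of -0.25 (SE 0.101, adjusted p = 0.0525), and next for Orc3, at a log2 value of -0.28 (SE 0.08396, adjusted p = 0.0114), and Rfc1, at a log2 value of -0.35 (SE 0.0936, adjusted p = 0.00649). The Orc4 interaction was not called, but it was without WT 1, Max KO 2 or EuMyc 3 (adjusted p = 0.0396, 0.0453 and 0.0341). With EuMyc Max KO 3 alone, Orc3 (adjusted p = 0.169) and Rfc1 (adjusted p = 0.0914) were no longer called.

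The other 4 genes without a called interaction were Orc1 (-0.69), Cdc6 (-0.44), Mcm10 (-0.96) and Clspn (-0.89). None of the 4 passed 12.99 CPM in any Max KO or WT library, and their log2 values carried standard errors of 0.381 to 0.465, against 0.101 for Orc4. Cdc45, Gins1, Gins2, Ticrr, Pole2 and Chaf1b also stayed below 12.99 CPM in every Max KO and WT library and had called interactions. The highest EuMyc Max KO library stood over the lowest by a ratio of 3.05 for Orc1, 2.59 for Cdc6, 1.94 for Mcm10 and 2.31 for Clspn. That ratio was 2.09 for Uhrf1, whose interaction was called. The reason for the missed calls was not tested. A missed call for Orc1, Cdc6, Mcm10 or Clspn does not show that Max loss acted alike with and without the transgene. With EuMyc Max KO 3 as the only library of its group, edgeR called all 4 interactions, at log2 values of -1.74 for Orc1 (adjusted p = 0.000212), -1.29 for Cdc6 (adjusted p = 0.000185), -1.545 for Mcm10 (adjusted p = 0.0101) and -1.64 for Clspn (adjusted p = 8.85e-06), and did not call that of Orc4 (-0.28, adjusted p = 0.108).

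**Figure D5:**
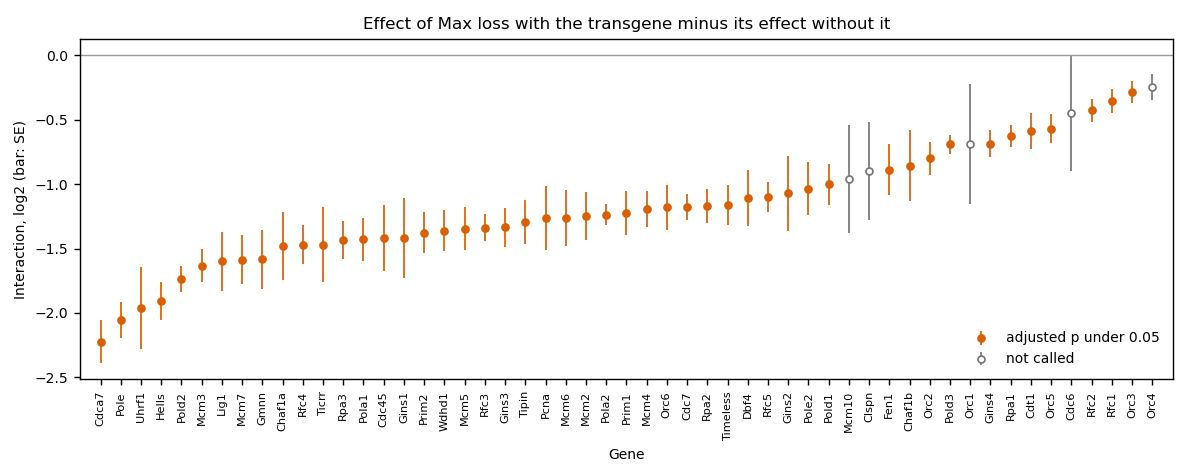
Interaction of transgene and Max loss for each of the 53 genes (across, sorted) in log2 units, with bars for the standard error; filled points have an adjusted p under 0.05 by edgeR. All points are below 0, from -2.23 for Cdca7 to -0.25 for Orc4, and the open points are Mcm10, Clspn, Orc1, Cdc6 and Orc4.

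Other genes of replication were more mixed. Of 60 further genes for licensing control, polymerase and clamp partners, fork signalling and nascent chromatin, 59 were tested. In EuMyc Max KO against EuMyc, 50 of these fell and 5 rose (median -0.99). In EuMyc against WT, 46 rose and 5 fell (0.97), and in Max KO against WT 12 fell (-0.18). The 5 that rose in EuMyc Max KO against EuMyc were Hmces, Donson, Cul4a, Pold4 and Zbtb38, and 4 of them, with Rad9a in place of Cul4a, fell in EuMyc against WT. Pold4, a small subunit of polymerase delta, thus had a log2 fold change of -0.80 in EuMyc against WT, opposite in sign to Pold1, Pold2 and Pold3. Chek1, the kinase that claspin activates, had log2 fold changes of 3.69 in EuMyc against WT and -2.71 in EuMyc Max KO against EuMyc, and the gene listed as 2810417H13Rik, a PCNA-associated factor, had 3.69 and -2.82, all called. 2810417H13Rik also had the lowest log2 fold change in Max KO against WT (-1.89), followed by Hmces, a shield for abasic sites (-1.04), and Dtl, an adaptor that directs Cdt1 for destruction (-0.68), all called. At the other end stood Cdca7l (0.33), a relative of Cdca7, the checkpoint kinase Atr (0.19) and the ligase subunit Skp2 (0.17), none of them called. Dtl (3.63) was the third of the highest in EuMyc against WT, and Exo1, an exonuclease, had a log2 fold change of -2.52 in EuMyc Max KO against EuMyc. Zbtb38, a methyl-DNA binding protein, had log2 fold changes of -1.50 in EuMyc against WT and 1.30 in EuMyc Max KO against EuMyc, and Hmces had -1.21 and 0.39. Donson, a factor for helicase assembly, had a log2 fold change of 0.42 and Cul4a, a ubiquitin ligase scaffold, 0.60 in EuMyc Max KO against EuMyc, both called. Cul4a had 168, 134 and 82.3 CPM in EuMyc Max KO 1, 2 and 3, against 87.2, 83.9 and 82.7 CPM in EuMyc, so that only the 2 libraries with the most erythroid marker reads lay above EuMyc, and the part of those reads in its value was not tested. With EuMyc Max KO 3 alone edgeR did not call Cul4a (log2 -0.05, adjusted p = 0.692), and the other 4 of the 5 were still called higher.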

How the data were processed

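RNA of B220+ splenocytes from 12 mice, 3 per genotype, was sequenced after library preparation by Illumina protocols, per the labels. The tools named in the submitters' processing notes were bcl2fastq 1.8.4, TopHat2 2.1.0 and HTSeq 0.6.1, with build mm10. The deposited values are raw counts of reads per gene symbol, made by the authors before any normalization. The sources used here do not state the annotation or strand setting, so 12 of the 53 genes, whose exons overlap another counted gene in GENCODE vM21 (mm10), are uncertain where they share reads: Orc2, Orc4, Orc5, Orc6, Mcm7, Gins2, Ticrr, Rfc2, Rfc4, Rfc5, Fen1 and Chaf1a. The files' 5 summary rows stayed out of library sizes and tests; reads outside genes were 12.5% to 20.3% of all reads in a table, reads with several alignments 20.3% to 27.9%, and ambiguous reads 0.748% to 1.45%.

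Counts were analysed in R 4.3.3 with edgeR 4.0.16 (filterByExpr on the 4 groups, TMM scaling, glmQLFit with robust estimation, glmQLFTest) in 1 model of all 12 libraries with 8 residual degrees of freedom. The biological coefficient of variation common to all genes was 13.7%. The standard error of a log2 fold change is its size over the square root of F. CPM used TMM-scaled library sizes, levels between genes were divided by exon length, and medians per library used an offset of 0.1 CPM. The values say how the sequenced RNA was divided among genes, not how much RNA a cell held. The fit was tested on simulated data. Promoter windows are from RefSeq.

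The members, gene lists, tests and alternatives were chosen with earlier results of these data known. By rule, values in every library are given for the genes with the highest and lowest log2 fold change in each role in EuMyc Max KO against EuMyc, the 3 highest and 3 lowest in Max KO against WT, EuMyc against WT and the interaction, and genes called against the majority; of the other replication genes, the 3 highest and 3 lowest in the first 3 comparisons are named. Orc1, Pcna, Hells and further genes given by their fold change alone were picked after their values were seen. No pair of libraries was identical, and replicates differed by more than sampling noise (chi-square per degree of freedom 7.46 to 65.6). Alternatives covered the scaling, the filter, the samples in the fit, DESeq2 1.42.0, a replicate block and each library left out in turn.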

Additional observations from a re-analysis of the deposited data

Results flagged for a closer look

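The effect of Max loss differed between cells with and without the transgene, by the interaction in the edgeR quasi-likelihood model, for 48 of the 53 genes, all in the negative direction. Of all tested genes, 27.9% were called negative and 27.8% positive. Among the genes given in every library, the interaction was -2.23 log2 units for Cdca7, -2.06 for Pole, -1.96 for Uhrf1, -0.35 for Rfc1 and -0.285 for Orc3. A negative value means a lower log2 fold change from Max loss in the transgenic cells than in the cells without the transgene. In the cells without the transgene that log2 fold change was above 0 for 6 of the 53 genes, Pole among them, with 0 called higher. Groups of 3 mice are too small for a test of single outlying libraries.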

How the results depend on the processing

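No median, and no call among the genes given in every library, changed direction under any alternative run. The median log2 fold change in EuMyc against WT was 2.15 and became 2.02 with upper-quartile factors and 2.05 with library totals, which moved the median of all genes by -0.13 and -0.10. With EuMyc Max KO 3 alone, an alternative chosen after seeing the data, the medians became -1.96 against EuMyc, 0.53 against Max KO, 0.19 against WT and -1.54 for the interaction, and against WT 8 genes were called higher and 0 lower. That alternative turned the sign of 9 values, 0 of them called in either fit: in EuMyc Max KO against WT to negative for Cdca7 (-0.16), Mcm4 (-0.02), Rpa1 (-0.02), Cdt1 (-0.05) and Prim2 (-0.06) and to positive for Orc3 (0.06), and against Max KO to negative for Gins3 (-0.04) and to positive for Orc3 (0.09) and Rfc1 (0.07). The 19 genes lower in Max KO against WT became 29 when only those 2 groups were fitted and 29 with DESeq2. The cause of these shifts was not tested. With EuMyc Max KO 3 alone, calls against WT over all tested genes also became fewer, in both directions. The smaller count of replication genes called higher there was therefore not particular to these genes.

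With each library left out in turn, counts ran from 10 to 16 lower in Max KO against WT, 52 to 53 higher in EuMyc against WT, 53 lower in each in EuMyc Max KO against EuMyc, 35 to 42 higher in EuMyc Max KO against Max KO, 24 to 35 higher in EuMyc Max KO against WT and 47 to 51 negative interactions. The main model treated same-numbered mice as unpaired. Correlations of their deviations ran from -0.117 to 0.344, and 4 of 18 passed 0.1. Between WT and Max KO the same-numbered values were 0.179, 0.344 and 0.0951, and the unlike-numbered values ran from -0.262 to 0.091. These correlations cannot decide whether the mice were paired or shared a batch. A replicate block gave 19, 53, 53, 40, 30 and 48 for the counts listed above, in the same order of comparisons.

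Of the genes given in every library, 16 calls were lost and 7 gained over 573 combinations of gene and alternative, in Orc3, Orc4, Rfc1 and Clspn (lost) and Cdc6 and Orc4 (gained). Cdc6 in Max KO against WT was called under upper-quartile factors, a filter of 1 CPM, a fit of those groups only and DESeq2, and Orc3 lost its rise in EuMyc against WT with upper-quartile factors (adjusted p = 0.0545) and its interaction there (0.0983) and with library totals (0.0645). Orc4 lost its rise with upper-quartile factors (0.236) and library totals (0.136). Over all genes, the share of calls that were higher was 48.4% in Max KO against WT and 61.1% with library totals, and 74.4% in EuMyc Max KO against Max KO and 63.6% with upper-quartile factors. Depth limits the lowest genes: 4 of the 53 stayed below 5 CPM in every WT library.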
